A study of Arabidopsis thaliana with 14 samples.

Results

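The transcripts of FVE, of its MSI1-type relatives and of the histone deacetylase and demethylase genes they work with were followed in Arabidopsis seedlings. The seedlings were wild type or carried mutations in FVE or in other genes. The members were taken by gene identifier and are 9 of the 32548 genes in the deposited tables: FVE (also MSI4, AT2G19520), MSI1 (AT5G58230), MSI2 (AT2G16780), MSI3 (AT4G35050), MSI5 (AT4G29730), HDA6 (AT5G63110), HDA5 (AT5G61060), HDA19 (AT4G38130) and FLD (AT3G10390). RNA came from whole seedlings aged 11 days, grown on MS medium, and was sequenced as 14 single-end libraries in 7 groups of 2. The first table holds 6 libraries: wild-type Col-0 replicates 1 and 2 (called Col-0 A here), the homozygous single mutant fve and the double mutant suvh2/9, which is homozygous in both SUVH2 and SUVH9. The second table holds 8 libraries: Col-0 replicates 3 and 4 (Col-0 B), the single mutant rrm1, the triple mutant pdp1/2/3 (homozygous in PDP1, PDP2 and PDP3) and the quadruple mutant pdp1/2/3;rrm1. The labels give no treatment, no mutant allele and no statement that replicates were separate cultures, so p-values measure only the spread between these libraries, which may be technical. Because seedlings were used whole, fewer expressing cells and less RNA per cell cannot be told apart.

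FVE and the MSI proteins are WD-repeat histone-binding proteins that do not modify histones themselves but serve as subunits of complexes that do. MSI1 is shared by the chromatin assembly factor CAF-1, by Polycomb repressive complex 2 and by deacetylase complexes, and MSI5 is the closest relative of FVE and acts partly in its place. HDA6 and HDA19 are deacetylases of the RPD3 class, which remove acetyl groups from histones and can bind FVE or MSI1; HDA5 is a deacetylase of the HDA1 class that works with HDA6. FLD is a homologue of the human histone demethylase LSD1, and FVE, FLD, HDA6 and HDA5 all help to keep the flowering repressor FLC low in the autonomous flowering pathway. SUVH2 and SUVH9 are proteins of RNA-directed DNA methylation, and PDP1, PDP2 and PDP3 are PWWP-domain proteins known as partners of FVE and MSI5.

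The relatives that could be confused by short reads are shown by the stretch of 50 coding bases in which each pair is most alike. FVE and MSI5 share 83.5% of aligned coding bases, and MSI2 and MSI3 share 84.0%. The sequences run 5′ to 3′ on the coding strand of TAIR10.1 (RefSeq), each spans an intron that is left out, and capitals mark the bases that differ within the pair. They lie at chr2:8459028-8459162 (plus strand, FVE), chr4:14559328-14559472 (minus, MSI5), chr2:7282997-7283271 (minus, MSI2) and chr4:16684121-16684436 (minus, MSI3).
FVE: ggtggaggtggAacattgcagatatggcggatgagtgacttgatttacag
MSI5: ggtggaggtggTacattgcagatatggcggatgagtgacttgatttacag
MSI2: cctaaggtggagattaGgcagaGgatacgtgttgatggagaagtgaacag
MSI3: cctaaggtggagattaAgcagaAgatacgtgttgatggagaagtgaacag
In these windows FVE and MSI5 differ at 1 base, and MSI2 and MSI3 at 2. Windows with at most 2 differences made up 2.27% of the 1189 compared for FVE and MSI5, and 0.61% of the 1148 compared for MSI2 and MSI3. Over runs of 50 bases within exons, 8 of the 9 genes had none that occurred elsewhere in the genome, and HDA5 had 22 of 1867, all in its neighbour HDA18 (AT5G61070). A read from the window shown for FVE can be told from MSI5 only by the single base in capitals.

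The gene models carry one further limit. All 9 are protein-coding: FVE spans chr2:8455756-8459642 on the plus strand with 15 exon blocks, and MSI5 spans chr4:14558927-14562601 on the minus strand with 14. MSI1, MSI2 and MSI3 each have 6 exon blocks, as does HDA6. The exons of MSI3 (chr4:16682580-16684928, minus strand) overlap those of bZIP19, a zinc-deficiency transcription factor on the other strand, over 302 bases, 18.6% of its exon length. Overlaps were 8.12% for MSI1, 4.84% for MSI2, 2.38% for FLD and 28 bases for HDA6, and none for FVE, MSI5, HDA5 and HDA19. Since strand use in the libraries is not given, reads in these stretches may belong to either gene.

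Levels are given in CPM, the authors' normalised adjusted counts per 1000000 of the common library total of the table, which was 21485094 in the first and 19220337 in the second. Totals of single libraries ran from 21259805 to 21722950 and from 18609045 to 19534578, so 1 adjusted count was worth 0.0465 and 0.052 CPM. The values of rrm1 replicate 1 and quadruple mutant replicate 1 stood apart in form, with fewer low values near whole numbers than the other 12 libraries, and called differences that rest on them are given without them, here for the 9 genes and under the processing alternatives for the other named genes. Markers of green tissue were high everywhere, at 38600 to 43680 CPM summed over 4 genes, as the seedling label requires. Divided by exon length, HDA19 was highest in both wild types, at 60.8 CPM per kb in Col-0 A and 52.8 in Col-0 B, above 91.9% and 90.7% of all genes tested. FVE came next with 30.5 and 22.1 CPM per kb followed by MSI1 with 19.3 and 16.7. HDA6 (13.9), MSI2 (13.8) and HDA5 (12.9) overlapped in the Col-0 A libraries, as did MSI3 (6.83) and FLD (6.73), so their order there does not exceed the spread. MSI5 was lowest, with 4.53 CPM per kb in Col-0 A and 2.69 in Col-0 B. FVE thus made up 88.3% and 85.9% of the summed per-kb level of FVE and MSI5 in the Col-0 A libraries.

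**Figure D1:**
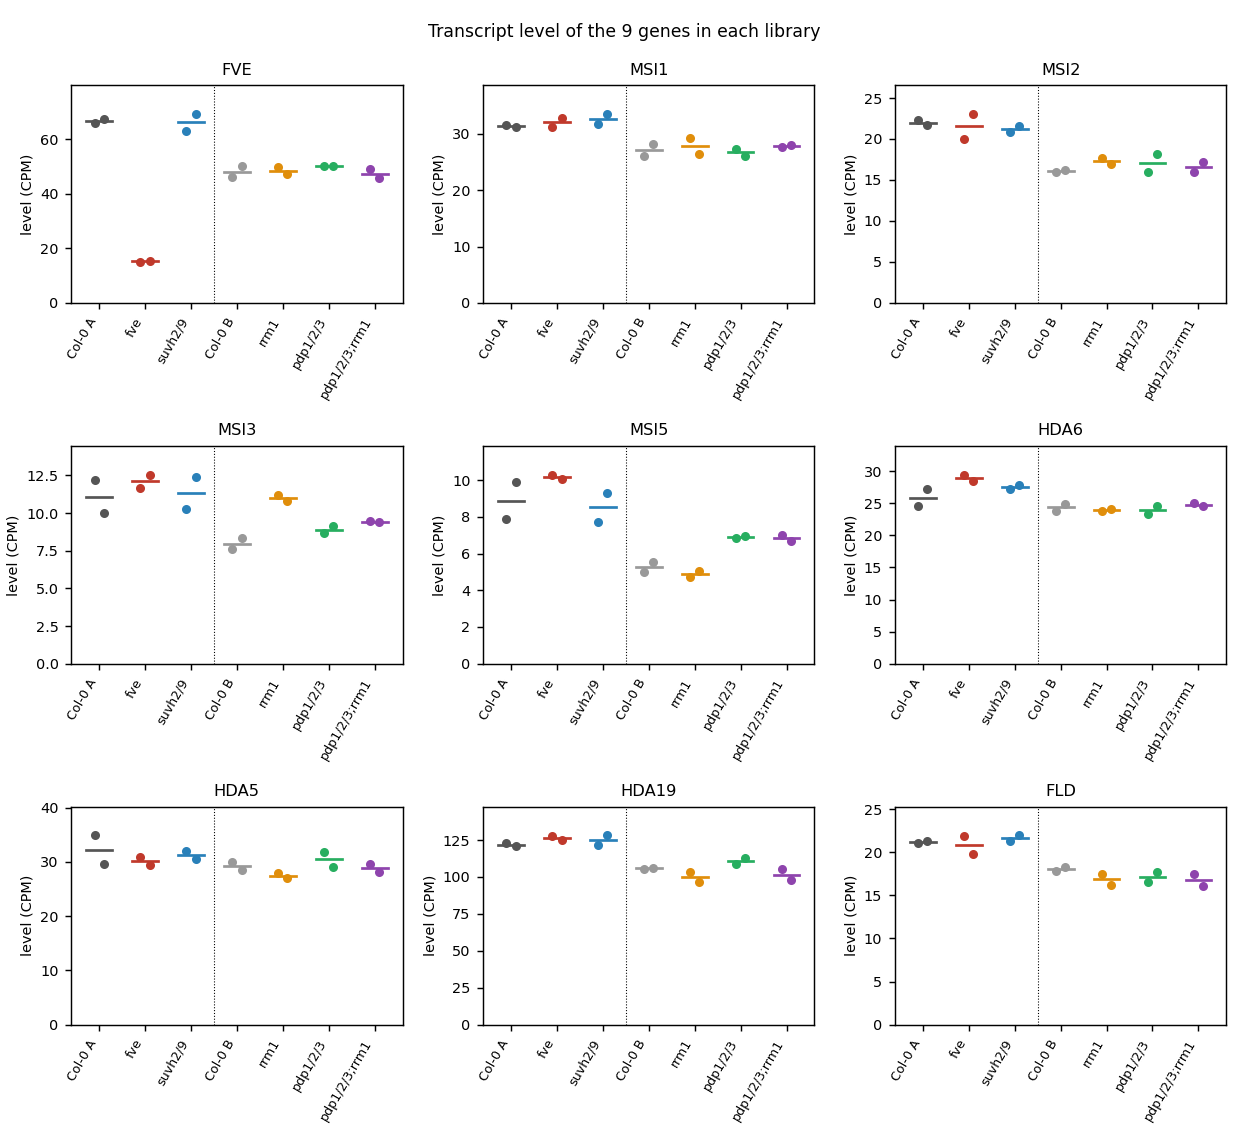
Level of each of the 9 genes (CPM, linear axis from 0) in every library, 1 point a library, with the 7 groups along the x axis and a dotted line between the tables. FVE drops to between 15.1 and 15.5 CPM in fve, MSI3 is highest within the second table in rrm1, and MSI5 is higher in both groups that carry the pdp1/2/3 mutations than in Col-0 B and rrm1.

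The fve mutant was first checked for the FVE transcript. FVE stood at 65.8 and 67.2 CPM in Col-0 A, at 15.1 and 15.5 CPM in fve and at 63.1 and 69.3 CPM in suvh2/9. The fve libraries lay far below the other 4, with no overlap, and retained 22.7% and 23.3% of the Col-0 A mean. In adjusted counts the residue was 324 and 333 against 1414 and 1444, well above the floor of 3 counts. FVE fell by 2.05 on the log2(CPM + 1) scale (SE 0.068, 95% interval −2.20 to −1.90, limma adjusted p = 4.75e-08), and its difference from suvh2/9 was −2.04 (limma adjusted p = 1.25e-08), where 2.06% of all genes were called and 0.843% were lower. Its neighbour 304 bases away, AT2G19530, differed by 0.40 (limma adjusted p = 0.283). In Col-0 B, rrm1, pdp1/2/3 and the quadruple mutant FVE lay between 45.6 and 50.2 CPM, a range of 1.10-fold over 8 libraries. The pdp1/2/3 libraries were just above the other 6, whose groups overlapped.

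No relative or partner changed its level beyond the test in fve. Of the 9 genes, FVE alone was called, lower, where 1.89% of all 19090 genes tested were called in either direction and 0.77% were lower. Among the other 8 the log2 differences ran from −0.09 for HDA5 to 0.18 for MSI5, and the 95% intervals together spanned −0.27 (HDA5) to 0.46 (MSI5). The median difference over the 9 was 0.03, against −0.01 over all genes. A p above the threshold does not show that these genes were unaffected, but a rise beyond 1.37-fold or a fall to below 0.827-fold on the log2(CPM + 1) scale lies outside every one of the 8 intervals.

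The closest relative of FVE had the largest difference among the genes not called in fve. MSI5 stood at 7.88 and 9.89 CPM in Col-0 A, at 7.70 and 9.31 in suvh2/9 and at 10.30 and 10.06 in fve. Both fve libraries were above the other 4, but by less than the gap between the Col-0 A libraries (log2 difference 0.18, 95% interval −0.09 to 0.46, limma adjusted p = 0.564). Per kb of exon, MSI5 remained below the residual FVE signal, at 5.25 and 5.13 against 6.91 and 7.11. The mutant allele is not given and levels are per gene, so which part of FVE these reads cover cannot be told. FVE made up 56.8% and 58.1% of the sum of both in fve and between 85.9% and 90.4% in the other 12 libraries. The summed per-kb level of the 5 MSI genes was 75.1 and 74.9 in Col-0 A and 51.1 and 54.7 in fve. FVE, the mutated gene, made up 40.2% and 41.2% of that sum in Col-0 A and 13.5% and 13% in fve. Its own fall lowers both this sum and its share of FVE and MSI5, so neither shows how the relatives responded.

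The remaining MSI genes gave like values in fve and Col-0 A. MSI1 was at 31.5 and 31.3 CPM in Col-0 A and at 31.2 and 32.9 in fve, a log2 difference of 0.03 (95% interval −0.12 to 0.18). MSI2 was at 22.3 and 21.7 against 20.04 and 23.08, a difference of −0.03 (−0.21 to 0.15). The groups overlapped for both. MSI3 was at 12.2 and 9.99 against 11.7 and 12.6, a difference of 0.12 (−0.14 to 0.38), with overlap as well.

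Among the deacetylases, HDA6 came nearest to a change in fve. It stood at 24.6 and 27.1 CPM in Col-0 A, 29.5 and 28.5 in fve and 27.2 and 27.8 in suvh2/9. The difference between fve and Col-0 A did not pass (log2 0.16, 95% interval −0.0030 to 0.32, limma unadjusted p = 0.0536, limma adjusted p = 0.366). HDA19 was at 123.1 and 120.7 CPM in Col-0 A and at 127.8 and 125.0 in fve, a log2 difference of 0.05 (−0.07 to 0.17). HDA5 was at 34.9 and 29.6 against 30.9 and 29.4, a difference of −0.09 (−0.27 to 0.09) within the gap of its wild-type pair. FLD, the demethylase homologue, was at 21.0 and 21.4 CPM in Col-0 A and at 21.9 and 19.8 in fve, a difference of −0.02 (−0.20 to 0.15).

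**Figure D2:**
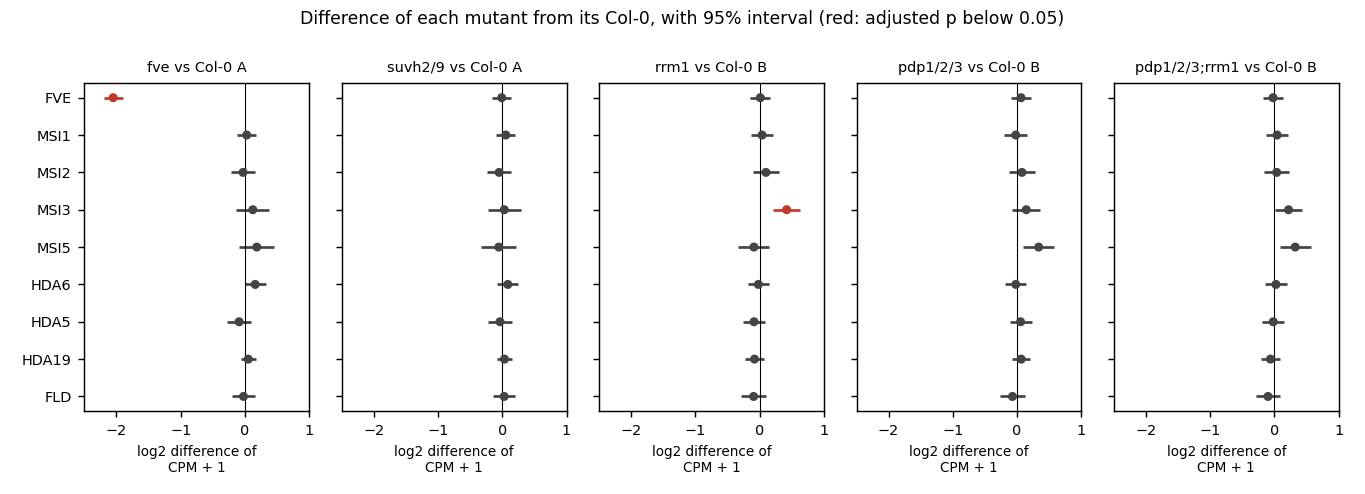
Log2 difference of CPM + 1 between each mutant and the Col-0 of its table (x axis) for the 9 genes (y axis), with 95% intervals from limma; red marks an adjusted p below 0.05. FVE in fve, at −2.05, and MSI3 in rrm1, at 0.42, are the red points, and MSI5 sits at 0.34 and 0.32 in pdp1/2/3 and the quadruple mutant without passing.

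FLC, the gene that FVE, FLD and HDA6 repress, was measured in the same libraries. It was at 0.321 and 0.422 CPM in Col-0 A, 11.1 and 11.4 in fve and 0.657 and 0.706 in suvh2/9. In Col-0 B it was at 0.411 and 0.318 CPM, and in rrm1 at 0.550 and 0.410. The pdp1/2/3 libraries were at 2.99 and 5.23 CPM and the quadruple mutant libraries at 8.81 and 8.86. FLC reached 1 CPM, and so passed the filter, only in the 3 mutants where it is high, so these levels are given with no test.

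In suvh2/9 the 9 genes stayed closest to wild type. None was called, where 0.571% of all genes were, and none had an unadjusted limma p below 0.05. Differences ran from −0.05 for MSI5 to 0.09 for HDA6, and the intervals from −0.33 (MSI5) to 0.29 (MSI3). The median size of the difference was 0.036 over the 9 genes and 0.064 over all genes, which were not matched to them for level.

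In rrm1 one member moved, MSI3. It stood at 7.59 and 8.37 CPM in Col-0 B, 11.2 and 10.8 in rrm1, 8.70 and 9.12 in pdp1/2/3 and 9.45 and 9.43 in the quadruple mutant. Both rrm1 libraries were above the other 6. MSI3 rose from 7.98 ± 0.548 to 11.0 ± 0.258 CPM (SD, n = 2 each), a log2 difference of 0.42 (SE 0.099, 95% interval 0.20 to 0.64, limma adjusted p = 0.0358). This was 1 of 9 genes, higher, where 2.74% of 19241 genes tested were higher and 4.03% were called in all. The call did not hold without any single one of the 4 libraries compared: the limma adjusted p was 0.244 without Col-0 B replicate 3, 0.106 without replicate 4, 0.213 without rrm1 replicate 1 and 0.122 without replicate 2. It also did not hold without the filter on low values (limma adjusted p = 0.0901).

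Several values stood beside the rise of MSI3, and their part in it was not tested. bZIP19, whose exons overlap MSI3 on the other strand, was at 30.4 and 31.5 CPM in Col-0 B and 30.4 and 30.2 in rrm1, a log2 difference of −0.03 (limma adjusted p = 0.863). MSI2, the closest relative of MSI3, differed by 0.10 (95% interval −0.10 to 0.30). Of 8 genes of DNA replication and cell division, none was called in rrm1 and 1 had an unadjusted limma p below 0.05. Of 4 root markers, 1 was called in rrm1, the root-hair expansin EXPA7 (log2 0.67, limma adjusted p = 0.0136). That call was lost with no filter (limma adjusted p = 0.0726), without Col-0 B replicate 4 (log2 0.53) and without rrm1 replicate 1 (log2 0.57). PYK10 made up almost all of the sum of the 4, at 1274 to 1998 CPM over the 14 libraries. COBL9, EXPA7 and PRP3 reached at most 11.7, 11.6 and 98.2 CPM. The summed level was 1775 to 2119 CPM in rrm1 against 1630 to 1668 in Col-0 B. That of 3 seed markers was 11.1 to 23.7 against 0.265 to 0.308 CPM, almost all of it the storage protein gene CRA1 (11.1 and 22.9 against 0.308 and 0.265 CPM), while SESA1 and OLEO1 reached at most 0.0514 and 0.720 CPM in any library. That of 3 flower markers was 4.20 to 5.30 against 0.923 to 0.953 CPM, led by PI (5.15 and 3.53 against 0.667 and 0.583 CPM), while AP1 and AG reached at most 0.230 and 0.514 CPM. Both the seed and the flower sums were also raised in the quadruple mutant, at 10.6 to 17.1 and 5.06 to 5.39 CPM. MSI3 was higher there than in Col-0 B by 0.22 without being called (95% interval 0.0036 to 0.43, limma adjusted p = 0.153, and 0.0468 before adjustment). CRA1 and PI passed the filter only through the 2 groups in which they are high. The other 4 seed and flower markers did not pass it, so these sums are given with no test. Over all genes, 4.03% were called in rrm1 and 18.3% in pdp1/2/3, where another root marker, PRP3, was called lower (log2 −0.31, limma adjusted p = 0.0498). PRP3 was not called with no filter (limma adjusted p = 0.119) or with no trend (0.124).

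The other 8 genes were not called in rrm1. Their differences ran from −0.09 for FLD to 0.10 for MSI2, and the intervals from −0.33 (MSI5) to 0.30 (MSI2). HDA19 had the lowest adjusted p among them: it was at 105.5 and 106.2 CPM in Col-0 B and 103.4 and 96.8 in rrm1 (log2 −0.08, limma adjusted p = 0.552).

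In pdp1/2/3 and the quadruple mutant MSI5 was the member with the largest difference. It stood at 4.97 and 5.56 CPM in Col-0 B, 4.74 and 5.03 in rrm1, 6.86 and 6.94 in pdp1/2/3 and 6.99 and 6.67 in the quadruple mutant. The 4 libraries with the pdp1/2/3 mutations lay above the 4 without them. Against Col-0 B the difference was 0.34 in pdp1/2/3 (SE 0.111, 95% interval 0.09 to 0.58, limma adjusted p = 0.0556) and 0.32 in the quadruple mutant (95% interval 0.08 to 0.57, limma adjusted p = 0.0658), and neither passed. These values lie near the threshold: without the abundance trend in limma the adjusted p was 0.0281 in pdp1/2/3 and 0.0341 in the quadruple mutant. With a pseudocount of 4 it was 0.0493 in pdp1/2/3. No other alternative gave a call of MSI5 against Col-0 B in these mutants, single libraries left out among them. With single libraries left out the log2 difference ran from 0.27 to 0.40 in pdp1/2/3 and from 0.26 to 0.39 in the quadruple mutant.

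The quadruple mutant set against rrm1 adds the pdp1/2/3 mutations on an rrm1 background. MSI5 was higher there by 0.41 (SE 0.111, 95% interval 0.17 to 0.66, limma adjusted p = 0.042), 1 of 9 genes, where 5.46% of all genes were higher and 7.96% were called. With each library scaled to its own total, the 1050 genes higher and 481 lower became 889 and 693, and MSI5 no longer passed (limma adjusted p = 0.0583). Leaving out a library also ended the call in 6 cases, with limma adjusted p of 0.0564 and 0.0572 without Col-0 B replicates 3 and 4, 0.231 and 0.105 without rrm1 replicates 1 and 2, and 0.150 and 0.129 without quadruple mutant replicates 1 and 2. MSI3 in the quadruple mutant was lower than in rrm1 by a difference of −0.20 that did not pass (95% interval −0.42 to 0.01, limma adjusted p = 0.261).

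Adding rrm1 to pdp1/2/3 called no member. Against pdp1/2/3 the quadruple mutant differed by −0.13 (HDA19) to 0.08 (MSI3), and for MSI5 by −0.01 (95% interval −0.26 to 0.23), where 2.96% of all genes were called. No member had an unadjusted limma p below 0.05. The test of whether the rrm1 difference itself changed on the pdp1/2/3 background called none of the 9 genes and 0.301% of all genes. MSI3 came nearest, with an interaction of −0.34 (95% interval −0.65 to −0.04, limma adjusted p = 0.364, and 0.0303 before adjustment), so a weaker rrm1 difference of MSI3 in the quadruple mutant was not shown.

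The deacetylases and FLD varied little in the second table. HDA6 ran from 23.37 to 24.99 CPM over all 8 libraries, a 1.07-fold range, and its differences from Col-0 B lay between −0.02 and 0.02. HDA5 ran from 27.02 to 31.80 CPM, with −0.09 in rrm1, 0.05 in pdp1/2/3 and −0.02 in the quadruple mutant. HDA19 ran from 96.8 to 112.6 CPM, lowest in rrm1 and highest in pdp1/2/3, with differences of −0.08, 0.06 and −0.06. FLD ran from 16.1 to 18.3 CPM, and its differences were −0.09, −0.07 and −0.10 in the same order, none of which passed. In pdp1/2/3 and in the quadruple mutant 0 of 9 genes were called, where 18.3% and 17.8% of all genes were; 1 and 2 had an unadjusted limma p below 0.05. The median size of the difference over the 9 was 0.064 in pdp1/2/3 and 0.041 in the quadruple mutant, against 0.144 and 0.143 over all genes. These sets were not matched for level, so the sizes do not show that the 9 genes were steadier than others. MSI1 and MSI2 likewise differed from Col-0 B by at most 0.10 in any mutant of the second table.

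All 9 genes read lower in Col-0 B than in Col-0 A by their means, which come from separately normalised tables and were not tested against each other. The ratio of Col-0 B to Col-0 A was 0.593 for MSI5, 0.719 for MSI3, 0.723 for FVE, 0.733 for MSI2 and between 0.852 and 0.941 for MSI1, HDA6, HDA5, HDA19 and FLD. For 7 of the 9 the Col-0 B libraries lay below both Col-0 A libraries, where this held for 41.2% of 18810 genes. The median ratio over all genes was 0.972. The 11.0 CPM of MSI3 in rrm1 therefore lay within the 9.99 to 12.2 CPM of Col-0 A, and the 6.86 and 6.94 CPM of MSI5 in pdp1/2/3 were below its 7.88 and 9.89 CPM there.

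The wider machinery around the 9 genes was read from 9 lists with 66 genes: other deacetylases, subunits of SIN3-type deacetylase complexes, LSD1-type enzymes, Polycomb and CAF-1 subunits, the CUL4-DDB1 ubiquitin ligase to which MSI proteins can bind, further autonomous-pathway genes, acetyltransferases, and DNA replication and cell division genes. In fve and suvh2/9, 0 of the 60 that could be tested were called, and in rrm1 0 of 59; unadjusted limma p below 0.05 numbered 6, 1 and 8. Over all genes 1.89%, 0.571% and 4.03% were called and 14%, 6.63% and 18.9% had such an unadjusted p, so counts of 0 among 60 genes say little about these lists. In pdp1/2/3, 3 of 59 (5.08%) were called, 1 higher and 2 lower, and in the quadruple mutant 7 of 59 (11.9%), 3 higher and 4 lower. Both shares were below the 18.3% and 17.8% of all genes. Among the 3 higher in the quadruple mutant, HAF2 passed the filter only through the groups in which it is high. The median difference over the lists was between −0.046 (quadruple mutant) and −0.0029 (fve) in each of the 5 mutants.

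**Figure D3:**
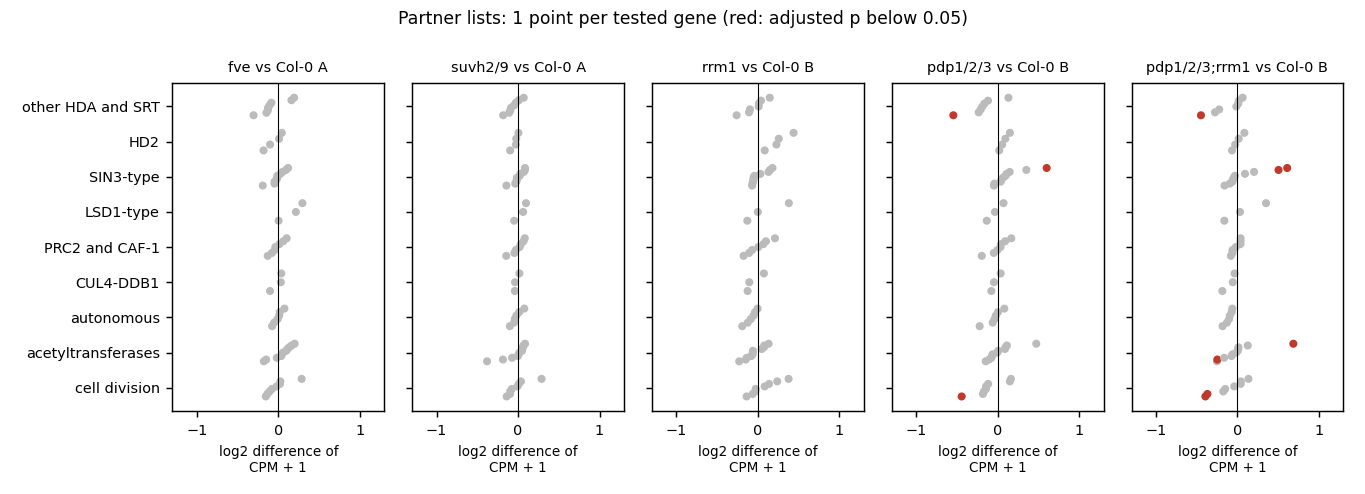
Log2 difference of CPM + 1 between each mutant and its Col-0 (x axis) for the tested genes of 9 partner lists (y axis), 1 point a gene; red marks an adjusted p below 0.05. No point is red in fve, suvh2/9 or rrm1, 3 are red in pdp1/2/3 and 7 in the quadruple mutant. Among the 7 is HAF2, which passed the filter only through the groups in which it is high.

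Of 11 other RPD3/HDA1-class and sirtuin deacetylases, 7 could be tested in the second table. HDA14, which acts in the chloroplast, was the 1 called in pdp1/2/3 and in the quadruple mutant, where 18.3% and 17.8% of all genes were. It was at 43.5 and 49.7 CPM in Col-0 B, 31.4 and 31.7 in pdp1/2/3 and 33.9 and 33.7 in the quadruple mutant, and fell by 0.54 (limma adjusted p = 0.00228) and by 0.45 (limma adjusted p = 0.00829) on the log2 scale. The second fall was lost without Col-0 B replicate 4 (limma adjusted p = 0.0957). HDA7, HDA10 and HDA17 were below the filter in both tables and HDA18 in the second.

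Of 4 plant-specific HD2 deacetylases, which have no animal counterpart, none was called against Col-0 in any mutant. Over all genes 0.571% (suvh2/9) to 18.3% (pdp1/2/3) were called, so 0 among 4 says little about these deacetylases. In rrm1 their median difference was 0.24, against 0.01 over all genes, with HD2A nearest to the threshold at 22.1 and 18.3 CPM in Col-0 B and 29.5 and 25.7 in rrm1 (log2 0.44, limma adjusted p = 0.0537). HD2A, like LDL1 and LDL2, is named after its values were seen.

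Of 10 SIN3-type scaffold and subunit genes, 1 was called higher in pdp1/2/3 and 2 in the quadruple mutant. Over all genes 10.8% and 10.7% were higher. AT1G19330 was at 13.9 and 16.4 CPM in Col-0 B, 24.0 and 22.7 in pdp1/2/3 and 22.4 and 24.6 in the quadruple mutant, with log2 differences of 0.60 (limma adjusted p = 0.00191) and 0.61 (limma adjusted p = 0.00201). AT1G75060 was at 2.31 and 1.80 CPM in Col-0 B and 3.21 and 3.44 in the quadruple mutant (log2 0.50, limma adjusted p = 0.0281), which did not hold when Col-0 B replicate 4 (adjusted p = 0.2) or either quadruple mutant library (0.0669 and 0.15) was left out. The SIN3-like scaffolds SNL1 to SNL6, HDC1 and SAP18 were not called in any mutant against Col-0.

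The lists closest to FVE, FLD and MSI1 held no call against Col-0 in any of the 5 mutants. Of 3 LSD1-type relatives of FLD, LDL1 was at 14.9 and 14.2 CPM in Col-0 A and 17.4 and 16.6 in fve (log2 0.22, limma adjusted p = 0.257), and LDL2 at 4.54 and 4.03 against 5.66 and 5.31 (log2 0.30, limma adjusted p = 0.303). Neither passed, and LDL3 was not called either. The same count of 0 held for 7 tested of 9 Polycomb and CAF-1 genes, for 3 of the CUL4-DDB1 ligase and for 6 autonomous-pathway genes, among them FCA and FPA, which act on RNA rather than on histones. Over all genes the share called ran from 0.571% in suvh2/9 to 18.3% in pdp1/2/3. Counts of 0 in lists of 3 to 7 tested genes therefore say little about them. The Polycomb genes MEA and FIS2, known from the endosperm, were below the filter, at no more than 0.188 CPM in any library.

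Acetyltransferases, which oppose the deacetylases, gave 2 calls among 11 tested of 12, both in the quadruple mutant. There 17.8% of all genes were called. HAF1 was at 66.4 and 65.3 CPM in Col-0 B and 59.4 and 51.6 there (log2 −0.25, limma adjusted p = 0.041). HAF2, its paralogue, was at 0.565 and 0.266 CPM in Col-0 B and 1.229 and 1.303 in the quadruple mutant. HAF2 reached 1 CPM only in 1 pdp1/2/3 library and both quadruple mutant libraries. It thus passed the filter only through the groups in which it is high, and its levels are given with no test. The HAF1 call was lost with no filter (limma adjusted p = 0.0656) and with no trend (0.0987). Leaving out 1 library also ended it in several cases. Over all single libraries left out, the log2 difference of HAF1 ran from −0.35 to −0.15.

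Of 8 DNA replication and cell division genes, 1 was called lower in pdp1/2/3 and 2 in the quadruple mutant. Over all genes 7.42% and 7.09% were lower. TSO2, a ribonucleotide reductase subunit, fell in both. It was at 83.1 and 82.5 CPM in Col-0 B, 60.9 and 60.5 in pdp1/2/3 and 63.7 and 61.9 in the quadruple mutant, and fell by 0.44 (limma adjusted p = 0.000407) and by 0.39 (limma adjusted p = 0.00112) on the log2 scale. MCM2, of the replicative helicase, was at 24.0 and 22.1 CPM in Col-0 B and 17.7 and 17.5 in the quadruple mutant (log2 −0.37, limma adjusted p = 0.00962), which did not hold when Col-0 B replicate 3 (0.107) or quadruple mutant replicate 2 (0.0555) was left out.

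Genes whose pattern over the 14 libraries was most like that of FVE were ranked by Pearson's r of log2(CPM + 1) minus the Col-0 mean of each table, among 4575 candidates. This is a description, since the points share libraries. UBC11 (AT3G08690), a ubiquitin-conjugating enzyme, came first with r = 0.962, then SHL1 (AT4G39100) with 0.848 and AT5G38100 with 0.843. UBC11 was at 26.4 and 23.8 CPM in Col-0 A and 13.7 and 13.0 in fve, a log2 difference of −0.86. SHL1 was at 38.3 and 43.0 against 25.5 and 29.6 CPM (log2 −0.55). AT5G38100 was at 4.31 and 3.94 against 1.48 and 1.57 CPM (log2 −1.02). For all 3 the fve libraries were the lowest of the first table, which is what the ranking picks out, so their differences are given with no test.

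**Figure D4:**
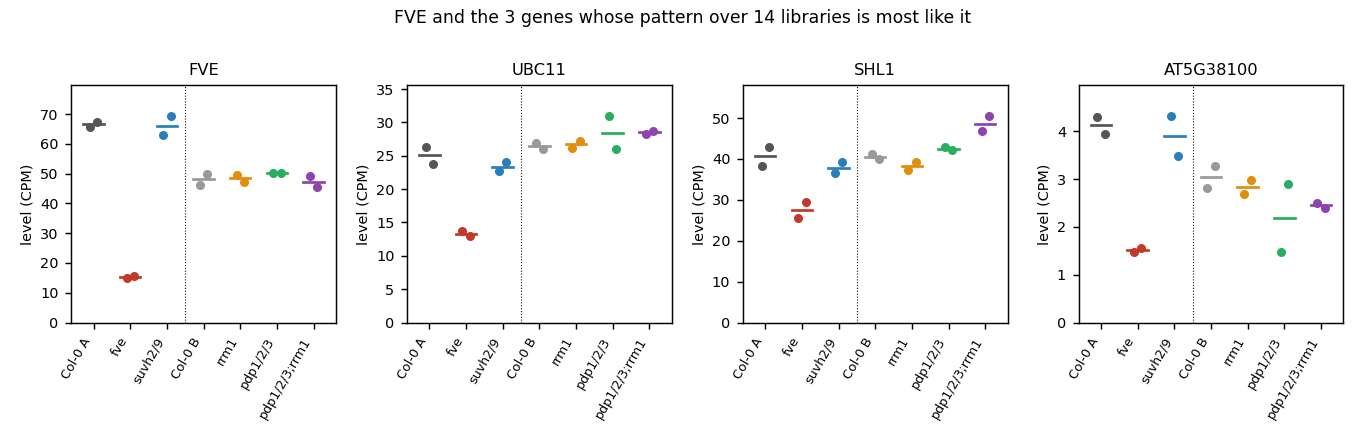
Level (CPM, linear axes from 0) of FVE and of UBC11, SHL1 and AT5G38100, the 3 genes with the highest Pearson's r to FVE over 14 libraries, 1 point a library in 7 groups. All 4 are lowest within the first table in fve, and FVE shows the largest drop.

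For MSI3 the most alike were DRP5A (AT1G53140), a dynamin-related protein, with r = 0.917 over 14 libraries and LTP6 (AT3G08770), a lipid transfer protein, with 0.895. Both were highest in rrm1 within the second table, with log2 differences from Col-0 B of 0.51 and 0.72, which is again what the ranking picks out and is given with no test. Among the 9 genes themselves, r over the 36 pairs ran from −0.73 (FVE and HDA6) to 0.64 (HDA19 and FLD), and was 0.62 for MSI2 and MSI3. FVE varied mostly through the fve libraries, so its r with HDA6 rests largely on the HDA6 difference in fve. That difference did not pass (log2 0.16, limma adjusted p = 0.366).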

How the data were processed

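Libraries were made from RNA extracted with Trizol and sequenced as single-end reads of 50 nt, per the labels' protocols; HISAT2, featureCounts, edgeR and the TAIR10 build are named in the submitters' processing notes, without versions or roles. The deposited values are a signal, the authors' normalised adjusted counts per gene, in 2 separately normalised tables. They are not whole read counts. Low values mostly lay within 0.2 of a whole number, but only 72.8% did in rrm1 replicate 1 and 90% in replicate 1 of the quadruple mutant, so whole reads were not recovered and no count test was run. Replicate numbers were taken from the labels; whether they pair libraries is given under the processing alternatives.

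Each value was divided by the geometric mean of its table's library totals and multiplied by 1000000. A gene was tested where 2 or more libraries of its table reached 1 CPM (19090 and 19241 genes). Tests used log2(CPM + 1) in 1 fit for each table, with every group of the table included, by limma 3.58.1 in R 4.3.3 (lmFit, eBayes with trend), two-sided, with Benjamini-Hochberg adjustment over all genes tested and a threshold of 0.05. Differences on this scale understate the change of low genes. The 95% intervals are moderated. The fit was tested on simulated data. Gene models and sequences came from TAIR10.1, whose identifiers matched all 32548 of the tables, read with Python 3.11.15 and Biopython 1.88.

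The 9 genes and the gene lists were chosen with earlier results of these data known. Named were the 9 genes, FLC, up to 3 called genes per list and mutant, and the 3 genes most like FVE and 2 most like any other member called against Col-0, among genes with an SD of at least 0.2. Alternatives were the pseudocount, the filter, the scaling, the trend, the groups fitted, each library left out and the replicate number as a block.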

Additional observations from a re-analysis of the deposited data

How the results depend on the processing

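No difference of the 9 genes or of the other named genes that was called turned its direction under any alternative run. Of 1332 values for the 81 differences of the 9 genes, 1312 kept their side of the threshold, 17 lost the call and 3 gained one; differences that were not called could change sign near 0. The fall of FVE in fve lay between −2.11 and −1.87 under 15 alternatives, with limma adjusted p from 1.34e-09 to 0.000965. The count of members called was the same under every alternative run for the interaction, for both mutants of the first table against Col-0 A and each other, and for pdp1/2/3 against the quadruple mutant. For rrm1 it went from 1 to 0 with no filter, and also with replicate 1 of both rrm1 and the quadruple mutant left out (MSI3, limma adjusted p = 0.237), and was 0 to 1 with single libraries left out. For pdp1/2/3 it went from 0 to 1 with a pseudocount of 4 and with no trend, and for the quadruple mutant from 0 to 1 with no trend. For the quadruple mutant against rrm1 it went from 1 to 0 with no filter, with each library scaled to its own total, with only the groups compared in the fit (MSI5, limma adjusted p = 0.067) and with the same 2 libraries left out together (0.372), and was 0 to 1 with single libraries left out. The cause was not tested. Log2 differences from Col-0 B were also read with replicate 1 of both rrm1 and the quadruple mutant left out. In the quadruple mutant they were −0.45 for HDA14, 0.68 for AT1G19330, −0.41 for TSO2 and −0.38 for MCM2. For HAF1 and AT1G75060 there they were −0.35 and 0.54, and for EXPA7 in rrm1 0.57. The calls of EXPA7 and AT1G75060 were lost.

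Same-numbered libraries deviated together with r from −0.10 to 0.20, so the numbers were not shown to pair them. With the replicate number as a block, the count of members called was 0 for the quadruple mutant against rrm1 (MSI5, limma adjusted p = 0.0785) and changed in no other comparison where a block could be fitted; 643 genes were called for fve, 178 for suvh2/9 and 698 for fve against suvh2/9. Col-0 B shares no number with its mutants.

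Counts over all genes moved more. For fve they ran from 100 (without fve replicate 1) to 666 (without suvh2/9 replicate 2), beside 361 reported. For suvh2/9 they ran from 51 to 178, beside 109, and for fve against suvh2/9 from 98 to 698, beside 394. For rrm1 they ran from 204 (without Col-0 B replicate 3) to 1752 (only the groups compared), beside 775. For pdp1/2/3 they ran from 1826 to 3571, beside 3513, and for the quadruple mutant from 1542 to 3832, beside 3427. For the quadruple mutant they ran from 434 to 1821 against rrm1, beside 1531, and from 166 to 589 against pdp1/2/3, beside 570. For the interaction they ran from 2 to 344, beside 58. With 2 libraries a group, the width of the intervals limits what can be seen for MSI5 and MSI3, the lowest of the MSI genes.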
